A study of Homo sapiens with 6 samples.

Results

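A set of 10 Notch pathway genes was followed in drug-tolerant persisters (DTPs) of PC-9, a non-small cell lung cancer line whose EGFR carries an activating mutation. They are the receptors NOTCH1, NOTCH2 and NOTCH3, the ligands JAG1, JAG2, DLL1 and DLL4, and HES1, HES4 and HEY1, which encode transcription factors of the HES and HEY family. Members were chosen by name, and each non-control probe set that the array annotation gives to exactly 1 of these 10 genes was taken, which left 25 of the 54613 probe sets tested and 10 of 19775 genes. A further 1 probe set, shared by NOTCH2 and its NOTCH2NL relatives, was left out by that rule.

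All 6 cultures were PC-9 cells transfected with a GFP vector, described as a stable line in the study's methods, and each was hybridized to 1 Affymetrix Human Genome U133 Plus 2.0 array. The 3 parental cultures received DMSO and the 3 DTP cultures received erlotinib, which inhibits the EGFR kinase, at 2 µM for 9 days. Per the protocol in the labels, drug was added at 80% confluency and DTPs were collected on day 10, whereas parental cells were collected on day 3 at 100% confluency. The study's methods instead give 9 days for both DMSO and erlotinib. Drug, days in culture and cell density cannot be told apart here if the protocol holds, and survival of a subset of cells cannot be told apart from a change within cells.

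Notch receptors span the plasma membrane and are bound by ligands of the Jagged (JAG) and Delta-like (DLL) families on neighbouring cells. After binding, proteases of the ADAM family and then γ-secretase cleave the receptor, and its intracellular domain joins the DNA-binding protein RBPJ and a Mastermind (MAML) coactivator in the nucleus to switch on genes such as HES1 and HEY1. In the airway epithelium the pathway is known for setting the balance between secretory and ciliated cells.

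Values are log2 probe set summaries, and each difference is the DTP mean minus the parental mean on that scale. A gene was called when limma gave an adjusted p (Benjamini-Hochberg over all genes) under 0.05 and the fold exceeded 1.5. The study's array methods also used limma, with these thresholds. The arrays give no detection call, so a gene that is not expressed still has a value. Levels of different probe sets were compared only as brightness, to choose a probe set and in sums over markers. They were not read as amounts of RNA of different genes.

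NOTCH3, JAG1 and HEY1 fell in DTPs and NOTCH2 rose. NOTCH3 was 3.62-fold lower, JAG1 3.12-fold lower and HEY1 2.44-fold lower, while NOTCH2 was 1.81-fold higher. The other 6 genes were called neither way. Of all genes, 8.08% were called higher and 6.13% lower, beside 1 and 3 of the 10. Higher genes made up 56.9% of all calls, 71.9% when each array was shifted to equal levels of ribosomal protein genes (ribosomal gene centring) and 76.9% when it was shifted to equal levels of added control RNAs (spike-in centring). The 8 members with an adjusted p under 0.05 compare with 44.5% of all genes, and the same 8 had groups that did not overlap, as 53.7% of all genes did. The median log2 fold change was -0.15 over the 10 and -0.05 over all genes.

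**Figure D1:**
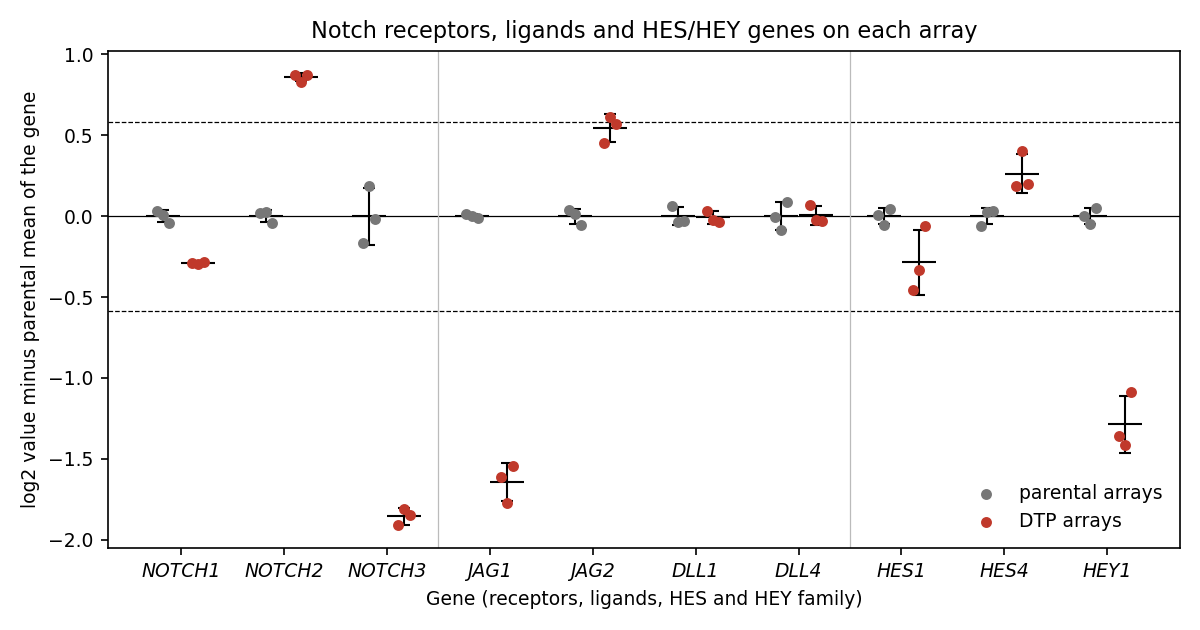
Log2 value of each gene on each array, relative to the parental mean of that gene (vertical axis), for parental arrays (grey) and DTP arrays (red); the mean with its SD (n = 3) is in black, and the dashed lines stand at 1.5-fold. The DTP means of NOTCH3, JAG1 and HEY1 lie below the lower line, that of NOTCH2 above the upper line, and that of JAG2 (0.54) just inside it.

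Among the receptors, NOTCH3 read 11.61, 11.96 and 11.76 on the parental arrays and 9.86, 9.97 and 9.93 on the DTP arrays. All DTP arrays were below all parental arrays, and the parental arrays were the more spread. The log2 fold change was -1.86 ± 0.09 (SE, n = 3 per group, limma adjusted p = 3.2e-09), a change larger in size than that of 98.5% of all genes. The value rests on 1 of the 2 probe sets of NOTCH3. The other, dimmer one had a log2 fold change of -0.26, its groups overlapped and it was not called. With the mean of both the log2 fold change was -1.06 and NOTCH3 was still called lower.

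NOTCH2 read 11.56, 11.57 and 11.50 in parental cells and 12.41, 12.37 and 12.42 in DTPs. The DTP arrays lay together, above all parental ones. The log2 fold change was 0.86 ± 0.06 (SE, n = 3 per group, limma adjusted p = 2.5e-07). Of the 4 probe sets of NOTCH2, 3 were called higher, with log2 fold changes of 0.78 to 0.86, and the dimmest one had 0.30 with groups that overlapped. One of the called probe sets is of the _x_at type, whose probes may also hybridize to unrelated RNA. NOTCH2 has close relatives in the NOTCH2NL genes, and how much of their RNA these probe sets read was not tested.

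NOTCH1 read 8.29, 8.26 and 8.21 in parental cells and 7.96, 7.96 and 7.97 in DTPs. The groups did not overlap, but the difference was small, with a log2 fold change of -0.29 ± 0.06 (SE, n = 3 per group). It passed the adjusted p (limma adjusted p = 0.0025) and not the fold minimum. Ribosomal gene centring left NOTCH1 outside the adjusted p threshold (-0.16, limma adjusted p = 0.072), as did spike-in centring (-0.11, limma adjusted p = 0.56). The other probe set of NOTCH1 had -0.16 and did not pass. The fourth receptor gene, NOTCH4, which is known from endothelium, had a log2 fold change of -0.17 with an adjusted p of 0.14 by limma. Both its group means (6.82 and 6.65) were under 7.29, the median over all probe sets. Its sign turned under spike-in centring (0.01), and its other probe set had 0.03. Without parental replicate 2 NOTCH4 passed the adjusted p (-0.25, limma adjusted p = 0.048) but not the fold minimum.

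Among the ligands, JAG1, which binds Notch receptors on adjacent cells, read 11.99, 11.98 and 11.97 on the parental arrays and 10.37, 10.21 and 10.44 on the DTP arrays. The parental values were nearly equal and all DTP values were far below them. JAG1 differed by a log2 fold change of -1.64 ± 0.07 (SE, n = 3 per group, limma adjusted p = 2.0e-09), larger in size than that of 98.0% of all genes.

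JAG1 was read by 6 probe sets, and 5 of them were called lower, with log2 fold changes from -0.60 to -1.64. The remaining one had -0.18 and its groups overlapped. Both it and the called probe set with the smallest change were among the dimmest of the 6, with parental means of 7.35 and 7.25. Over all 54613 non-control probe sets, those without a gene symbol included, 7.56% were called higher and 4.93% lower, beside 3 and 8 of the 25 here. Probe sets of 1 gene read the same RNA and are not independent.

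JAG2, the other Jagged ligand, read 10.04, 10.01 and 9.95 in parental cells and 10.45, 10.61 and 10.57 in DTPs. Its groups did not overlap, in the direction opposite to JAG1. For JAG2 the log2 fold change was 0.54 ± 0.07 (SE, n = 3 per group, limma adjusted p = 3.5e-05), a 1.46-fold difference below the fold minimum, and the other probe set had 0.45. JAG2 passed the fold minimum without DTP replicate 1 (0.59) and with ribosomal gene centring (0.67) or spike-in centring (0.72).

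The Delta-like ligands were called neither way. DLL4, a ligand known for its part in vessel sprouting, read 8.10, 8.01 and 8.19 in parental cells and 8.17, 8.07 and 8.07 in DTPs. The groups overlapped, and the 95% confidence interval of the log2 fold change ran from -0.15 to 0.16. DLL1 read 6.13, 6.03 and 6.03 in parental cells and 6.10, 6.04 and 6.03 in DTPs. These values overlapped too, with an interval from -0.15 to 0.14, and they were dimmer than the median probe set, so a change of a lowly expressed DLL1 may not be visible. The other probe set of DLL1 was dimmer still, with 4.405, 4.88 and 4.70 in parental cells and 4.26, 4.400 and 4.37 in DTPs. Its groups stood apart only in the third decimal, and its log2 fold change of -0.32 passed the adjusted p (limma adjusted p = 0.036 over all probe sets) but not the fold minimum.

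**Figure D2:**
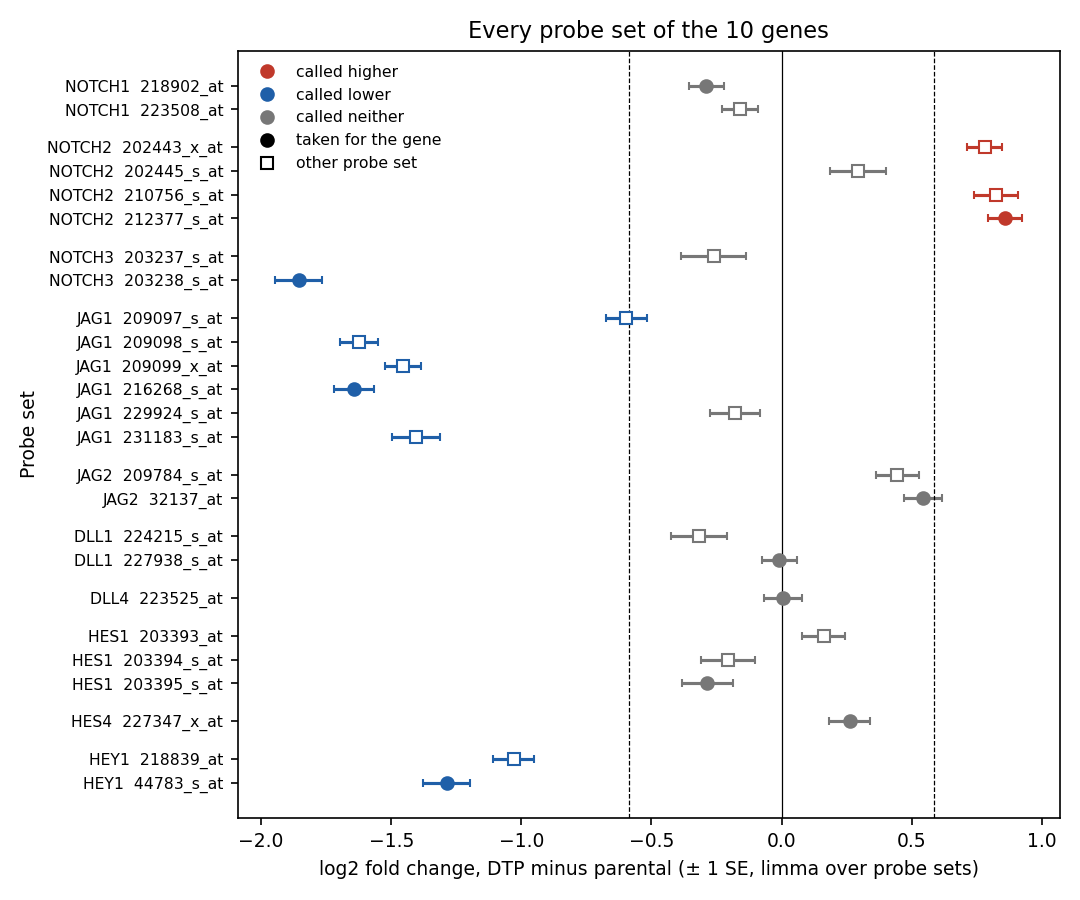
Difference in log2 value, DTP minus parental (horizontal axis), for each of the 25 probe sets of the 10 genes (vertical axis), with 1 SE from limma; filled circles are the probe sets taken for a gene, open squares the others, red and blue those called higher and lower, and dashed lines a 1.5-fold difference. The sign was the same over all probe sets of each gene except HES1.

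HES1, HES4 and HEY1 encode basic helix-loop-helix proteins that repress transcription and are known as direct targets of the Notch and RBPJ complex. RBPJ is known to bind sites with the core letters TGGGAA. In the 250 bases before the gene start this core occurred, on either strand, in 20.8% of 35116 promoters, and the longer GTGGGAA, which contains it, in 5.43%. Entries were found for 8 of the 10 genes, all but DLL1 and HEY1. The core was present for HES1 (2 matches, 1 of them the longer form) and HES4 (1 match, of the longer form), and not for the other 6. The HES1 stretch (chr3:194135898-194136147, plus strand) and the HES4 stretch (chr1:1000098-1000347, minus strand), from RefSeq on GRCh38.p14, are shown because both carry the core close to the gene start, beginning 84 and 70 bases before it in HES1 and 76 bases before it in HES4. Capitals mark the core.

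HES1: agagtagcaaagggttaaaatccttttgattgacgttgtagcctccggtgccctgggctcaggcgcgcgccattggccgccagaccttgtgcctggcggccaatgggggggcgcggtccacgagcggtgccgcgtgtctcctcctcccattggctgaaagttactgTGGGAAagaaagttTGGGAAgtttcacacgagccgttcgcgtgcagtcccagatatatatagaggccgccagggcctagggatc
HES4: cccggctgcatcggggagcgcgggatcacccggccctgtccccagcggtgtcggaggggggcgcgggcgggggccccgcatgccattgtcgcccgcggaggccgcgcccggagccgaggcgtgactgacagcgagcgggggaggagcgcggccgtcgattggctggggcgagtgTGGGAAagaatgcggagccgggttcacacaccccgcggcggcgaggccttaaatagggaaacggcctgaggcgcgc

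HEY1, which is active in vessels, heart and bone, read 9.17, 9.12 and 9.21 in parental cells and 7.81, 7.75 and 8.08 in DTPs. All DTP values were below the parental ones, and DTP replicate 3 was the highest of the 3. The HEY1 log2 fold change was -1.29 ± 0.09 (SE, n = 3 per group, limma adjusted p = 9.5e-08), larger in size than that of 96.6% of all genes. The second probe set of HEY1 was called lower as well, with -1.03.

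HES1, whose upstream stretch is shown with its matches to the core, read 10.02, 9.96 and 10.05 in parental cells and 9.55, 9.67 and 9.95 in DTPs. DTP replicate 3 lay just under the parental arrays and the other DTP arrays farther below. The log2 fold change was -0.28 ± 0.09 (SE, n = 3 per group), which passed the adjusted p (limma adjusted p = 0.025) but not the fold minimum. It no longer passed when DTP replicate 1, DTP replicate 2, parental replicate 1 or parental replicate 3 was left out, with log2 fold changes of -0.20, -0.26, -0.28 and -0.26 and limma adjusted p of 0.11, 0.079, 0.057 and 0.063. Without DTP replicate 3 it was -0.40 (limma adjusted p = 0.0018). Ribosomal gene centring (-0.16) and spike-in centring (-0.11) also left HES1 outside the adjusted p threshold, as did the mean of its probe sets (-0.11, limma adjusted p = 0.19) and the methods' t-test (adjusted p = 0.15). The 3 probe sets of HES1 did not share a sign, and the dimmest of them had 0.16 without passing.

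HES4 was read by a single probe set, of the _x_at type, which gave 8.60, 8.68 and 8.69 in parental cells and 8.85, 9.06 and 8.86 in DTPs. The groups did not overlap, and DTP replicate 2 was the highest. The log2 fold change of 0.26 ± 0.08 (SE, n = 3 per group) passed the adjusted p (limma adjusted p = 0.014) but not the fold minimum. It missed the adjusted p without DTP replicate 2 (0.19, limma adjusted p = 0.070) or parental replicate 1 (0.23, limma adjusted p = 0.054), as it did with the methods' t-test (adjusted p = 0.066). The difference was larger with ribosomal gene centring (0.39, limma adjusted p = 0.00057) and spike-in centring (0.44, limma adjusted p = 0.0032), still below the fold minimum. The 6 other measured members of this family, HES2, HES5, HES6, HES7, HEY2 and HEYL, were called neither way, with log2 fold changes between -0.25 and 0.19. The smallest p among them was that of HEY2 (-0.24, limma adjusted p = 0.013), and both its group means (6.45 and 6.21) were below the median of all probe sets. HEY2 missed the adjusted p with ribosomal gene centring (-0.12, limma adjusted p = 0.22), with spike-in centring (-0.06, limma adjusted p = 0.76) and without parental replicate 1 (-0.21, limma adjusted p = 0.059), and it was called lower (-0.62) when the more variable of its 2 probe sets was taken.

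**Figure D3:**
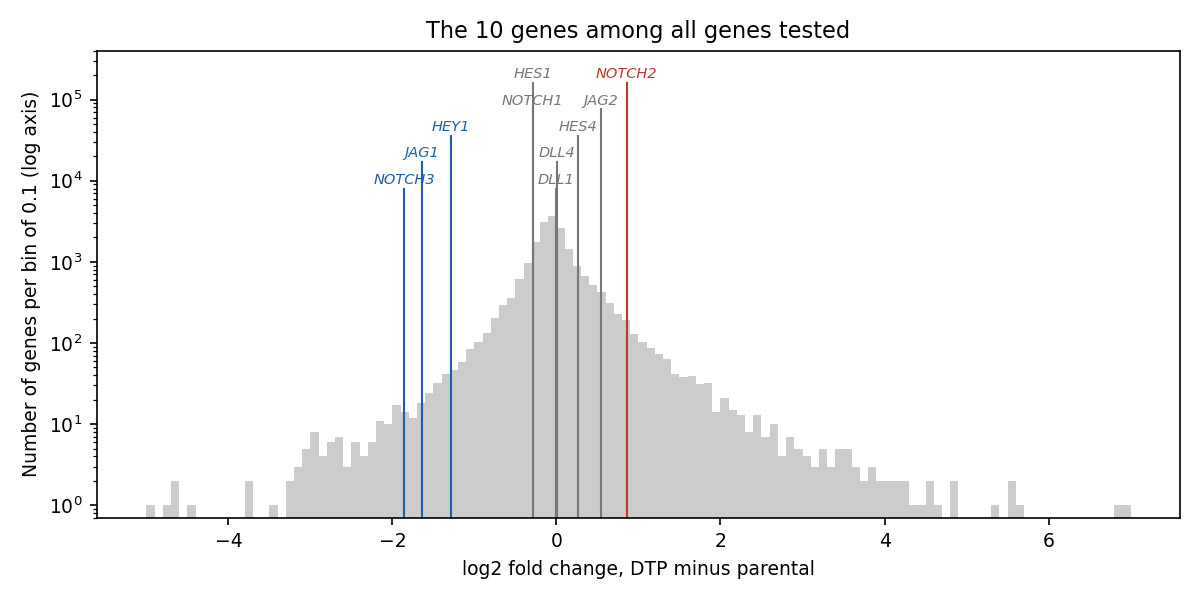
Number of genes (vertical log axis) by log2 difference, DTP minus parental (horizontal axis), for all 19775 genes, with lines at the 10 genes, blue for called lower, red for called higher and grey for neither. NOTCH3, JAG1 and HEY1 lie in the lower tail, and HES1 and HES4 close to the bulk of genes.

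The other genes of the pathway were taken from a list of 74 genes by role, of which 67 were measured here. Of these, 8 were called higher, 6 lower and 53 neither, with a median log2 fold change of -0.07. The background over all genes was 8.08% higher and 6.13% lower. Another 32 of the 53 passed the adjusted p without the fold minimum, which makes 46 of the 67 past it, beside 44.5% of all genes. The others of the list were not analysed here.

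Of 5 measured genes that help endocytose bound ligands, the ubiquitin ligase gene NEURL1B was called higher and its relative NEURL1 lower. NEURL1B read 8.16, 7.94 and 8.20 in parental cells and 10.43, 10.52 and 10.74 in DTPs, a 5.53-fold rise on its 1 probe set (log2 fold change 2.47 ± 0.09 SE, limma adjusted p = 4.6e-10). NEURL1 was 1.70-fold lower (-0.77 ± 0.07 SE), with both its probe sets called lower, and the remaining 3 genes of this group were called neither, with log2 fold changes from -0.35 to -0.21. LFNG, a Fringe glycosyltransferase that modifies Notch receptors and so shifts which ligands they respond to, rose 1.72-fold (0.78 ± 0.07 SE), and the other 4 enzymes of this group were called neither. LFNG lay below the fold minimum with the mean of its 2 probe sets (0.52). None of the 6 other ligands or ligand-like genes was called, and the smallest p was that of DLK2, an atypical ligand (-0.52, limma adjusted p = 5.8e-05).

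Of 8 measured genes of receptor cleavage 1 was called. ADAM17, a membrane protease that sheds many surface proteins, EGFR ligands among them, read 11.77, 11.91 and 11.91 in parental cells and 10.87, 10.95 and 10.95 in DTPs. It was 1.92-fold lower (-0.94 ± 0.07 SE, limma adjusted p = 2.1e-07), and all 3 of its probe sets were called lower. The other 7 genes were called neither. Among them ADAM10, a protease of the same family named after its value was seen, went the other way. Its log2 fold change of 0.42 ± 0.06 (SE) passed the adjusted p (limma adjusted p = 0.00013) but not the fold minimum. ITCH, a ubiquitin ligase that can send Notch receptors for degradation, was 2.28-fold lower (-1.19 ± 0.08 SE), with 5 of its 6 probe sets called lower, and the other 9 genes of receptor turnover were called neither.

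In the nucleus, the coactivator MAML3 was 2.12-fold lower (-1.09 ± 0.08 SE, limma adjusted p = 1.2e-07), but it was called on only 1 of 3 probe sets, and the mean of the 3 (-0.56) did not reach the fold minimum. The acetyltransferase KAT2B was 1.85-fold higher (0.89 ± 0.08 SE), with both group means (5.78 and 6.67) under the median of all probe sets. RBPJ itself had a log2 fold change of 0.20 and, named outside the rule for named genes after its value was seen, an adjusted p of 0.049 by limma. Among 8 measured corepressor genes, TLE2 (2.65-fold, 1.40 ± 0.08 SE) and TLE1 (1.85-fold, 0.89 ± 0.07 SE) rose. They encode Groucho-type corepressors that HES proteins recruit. Both probe sets of TLE2 and 3 of 5 of TLE1 were called higher, while the mean over those of TLE1 (0.52) lay below the fold minimum.

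**Figure D4:**
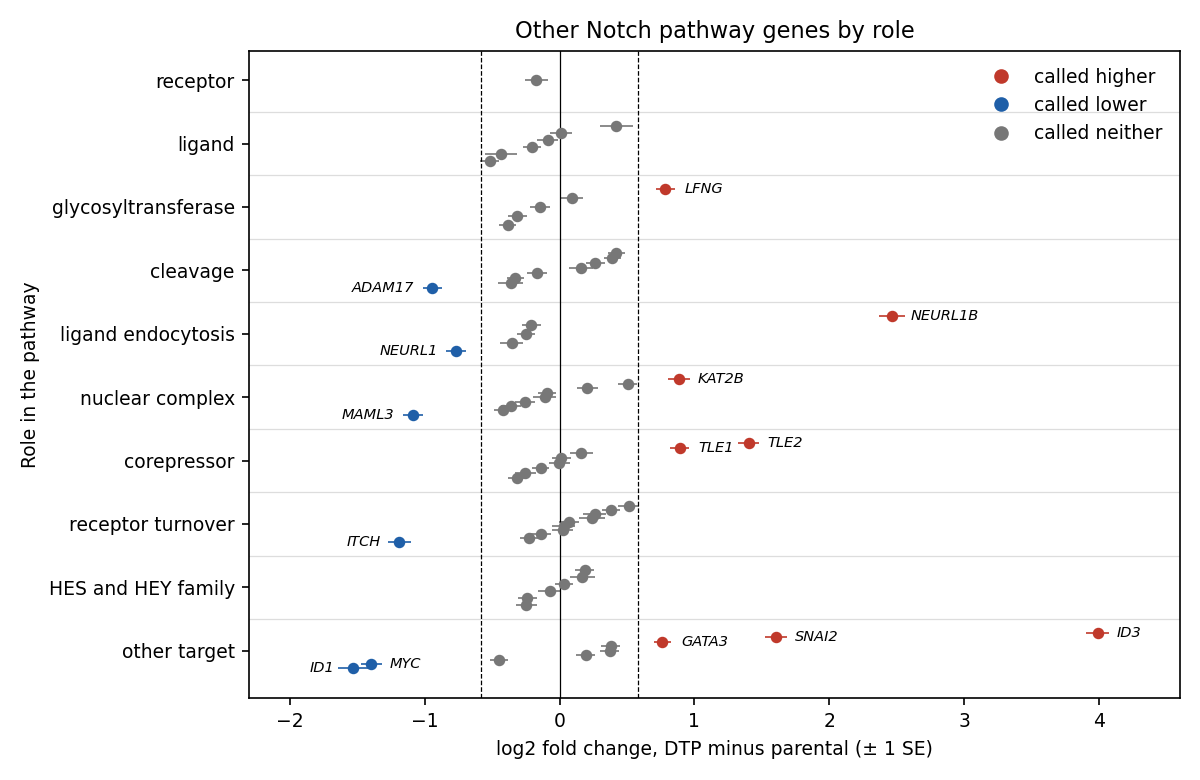
Difference in log2 value, DTP minus parental (horizontal axis, with 1 SE), for 67 other Notch pathway genes by role (vertical axis); red and blue are called higher and lower, grey neither, and dashed lines mark a 1.5-fold difference. The called genes, which are named, run from ID1 at -1.53 to ID3 at 3.99, with both directions among genes of ligand endocytosis, the nuclear complex and other targets.

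Genes listed as other targets of Notch were split, with 3 of 9 measured called higher and 2 lower. ID3, an inhibitor of helix-loop-helix factors, rose 15.9-fold (3.99 ± 0.09 SE), whereas its relative ID1 was 2.89-fold lower (-1.53 ± 0.11 SE). SNAI2, a repressor linked to epithelial-mesenchymal transition, rose 3.04-fold (1.60 ± 0.08 SE). The remaining called genes, MYC (-1.40) and GATA3 (0.76), fall outside the rule for named genes and were named after their values were seen. Of the called targets, ID3, ID1, SNAI2 and MYC were each read by 1 probe set, and 2 of 3 probe sets of GATA3 were called higher. All 5 are known to respond to other pathways as well. NRARP, a feedback inhibitor and direct Notch target also named after its value was seen, read 8.84, 8.84 and 8.89 in parental cells and 8.37, 8.39 and 8.46 in DTPs. Its groups did not overlap, but the difference (-0.45 ± 0.07 SE, limma adjusted p = 9.8e-05) stayed below the fold minimum. With spike-in centring NRARP had -0.27 ± 0.13 (SE) and missed the adjusted p (limma adjusted p = 0.10), with a smaller difference and a larger SE.

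Markers of epithelial, endothelial and other cell types were looked up. All 7 epithelial genes read (EPCAM, KRT7, KRT8, KRT18, KRT19, CDH1 and EGFR) were above the median of all probe sets, and KRT7 was called higher in DTPs. Of 6 endothelial genes, a cell type in which several Notch genes are active, 1 was called lower and 4 were at least as bright as the median probe set. The called gene was PECAM1 (10.09 in parental cells and 9.40 in DTPs), read by 1 of its 5 probe sets. Its other probe sets were not described here. PECAM1 was also the brightest of the 6 genes and so weighs most in their summed level. The summed level of the 6 lay between 10.79 and 10.94 in parental cells and between 10.39 and 10.61 in DTPs on the log2 scale. None of 6 fibroblast and mural genes, 3 blood cell genes and 3 neuroendocrine genes was called. Their summed log2 levels ran from 9.73 to 9.84, from 8.76 to 8.79 and from 8.06 to 8.22 in parental cells, and from 9.57 to 9.72, from 8.56 to 8.78 and from 7.98 to 8.02 in DTPs. No marker is at 0, since the scale has no zero. All cultures were of the PC-9 line, so the marker values were not read as shares of other cell types. The part of these markers in the falls of JAG1, NOTCH3 and HEY1 was not tested. In these cultures fewer PC-9 cells of one state and less RNA per cell cannot be told apart.

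The 3′ minus 5′ control difference, a sign of RNA quality, was lower in DTPs by 0.02 for GAPDH and by 0.11 for β-actin (two-sided exact permutation p = 0.10 each, the smallest that 3 against 3 arrays allow). Pearson's r over probe sets was at least 0.9968 within groups and at most 0.9754 between them, as a description of the arrays.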

How the data were processed

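According to its labels and methods, the deposited log2 values are probe set summaries that the authors made by robust multi-array averaging (RMA, affy package) with quantile normalization (version not given in the sources used here). Quantile normalization hides a change of total mRNA per cell. Precision is limited by having 3 arrays per group.

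Array medians lay between 7.27 and 7.32. Of 54675 probe sets, 62 were controls; 41091 of the rest had 1 symbol, 1801 several and 11721 none. Each gene was read by its brightest probe set (mean over 6 arrays) among those without _x_at, or among _x_at ones where it had no other.

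DTP and parental arrays were compared with limma 3.58.1 in R 4.3.3 (lmFit, eBayes, two-sided), over all genes and over all probe sets, with Benjamini-Hochberg adjustment. Scripts were tested on simulated data. The labels do not say that cultures were independent, so p-values measure the spread between these samples. The members and lists were chosen with earlier results of these data known. The 10 members were described with every probe set, and named pathway genes were, per role, up to 3 called genes with the largest change, or the one with the smallest p.

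Alternatives were the replicate block, leaving out each array, centring on ribosomal protein genes or spike-ins, dropping dim probe sets, cyclic loess and other probe set rules. Further ones were array weights, a robust fit with an intensity trend, a Student's t-test and other fold minimums. The study's methods give the t-test for figures other than the arrays, and here it had the Benjamini-Hochberg adjustment. RefSeq promoter sequences (GRCh38.p14) were searched on both strands, and their orientation was checked by the place of the TATA box.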

Additional observations from a re-analysis of the deposited data

How the results depend on the processing

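NOTCH2, NOTCH3, JAG1 and HEY1 kept their direction and call under all 17 alternatives that left the thresholds as they were, with log2 fold changes from 0.69 to 1.04, from -1.94 to -1.06, from -1.69 to -1.15 and from -1.39 to -1.11. The members called higher numbered 1, and between 1 and 2 when single arrays were left out (2 without DTP replicate 1, where JAG2 was added), 2 with ribosomal gene centring and 2 with spike-in centring, 3 with no fold minimum and 0 with a fold over 2. Members called lower went from 3 to 5 with no fold minimum. Other pathway genes called higher went from 8 to 21 with no fold minimum and to 4 with a fold over 2, and were between 6 (mean of probe sets) and 12 (spike-in centring) under the other alternatives. Those called lower went from 6 to 25 with no fold minimum and to 4 with a fold over 2, and were between 5 (mean of probe sets) and 8 (most variable probe set) otherwise. Probe sets of the 10 genes called higher went from 3 to 7 with no fold minimum, to 5 under spike-in centring and to 0 with a fold over 2. The uncalled DLL1 ran from -0.029 to 0.024 when single arrays were left out, turning positive without parental replicate 1 or DTP replicate 3, and was positive under ribosomal gene centring (0.12), spike-in centring (0.17) and cyclic loess (0.050). With the mean of its probe sets DLL1 had -0.16, and with the most variable one -0.32, which passed the adjusted p (0.028 by limma) but not the fold minimum. DLL4 ran from -0.037 to 0.049 when single arrays were left out, turning negative without parental replicate 2 or DTP replicate 1. It had 0.13 with ribosomal gene centring and 0.18 with spike-in centring. NOTCH4 turned positive under spike-in centring (0.0066). The cause was not tested. Ribosomal gene centring moved the median of all genes from -0.05 to 0.08, and spike-in centring moved it to 0.13.

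With the replicate number as a block, 1 member was called higher and 3 lower, 8 and 6 pathway genes and 3 and 8 probe sets, as without it, and NOTCH3 had an adjusted p of 8.2e-09 by limma. The arrays with the same number did not deviate together (correlations of -0.12, 0.02 and -0.06), so the numbers were not taken to pair the cultures.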
